A study of Mus musculus with 60 samples.

Results

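The cortex of 4 mouse strains of the C57/C58 stock, C57BL/6J, C57BLKS/J, C57BR/cdJ and C58/J, was set against the cortex of 26 other inbred strains on the arrays of mice that drank plain water. The 4 strains were chosen by their names and known ancestry, without any measured value, and gave 4 of the 30 water arrays among 60 arrays in all. Every array carried cortical RNA pooled from 3 male mice of 1 strain and 1 treatment, aged 10 to 11 weeks. The water group received 0 mg/kg of fluoxetine, a serotonin reuptake inhibitor, and other mice of the same 30 strains received 18 mg/kg per day by mouth for 21 days. Those fluoxetine arrays served here as a repeat measurement of the strain differences. The pooling leaves no spread between single mice, so the strain was the unit, and the error of each difference is the spread between strains. The other 26 strains were DBA/2J, BALB/cJ, SWR/J, 129S1/SvImJ, LP/J, C3H/HeJ, A/J, CBA/J, FVB/NJ, AKR/J, SJL/J, NZB/BlNJ, BTBRT T(+) tf/J, NZW/LacJ, NOR/LtJ, SM/J, NOD/LtJ, LG/J, MRL/MpJ, I/LnJ, RIIIS/J, P/J, BUB/BnJ, PL/J, CE/J and MA/MyJ. The 4 strains are relatives rather than independent draws, and a test of 4 against 26 treats them as if they were independent.

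C57BL, C57BR and C58 mice descend from closely related founders of 1 early laboratory colony. C57BLKS/J is a C57BL line that also carries chromosome segments of other origin, part of them from DBA/2J. The strains differ in their major histocompatibility complex, the H2 region: C57BL/6J is known to carry haplotype b, C57BLKS/J haplotype d, and C57BR/cdJ and C58/J haplotype k. The mouse reference genome is that of C57BL/6J.

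The water arrays of the 4 strains had a median intensity of 41.4 to 42.4 against 39.2 to 43.1 on the other 26, and 26.5% to 27.7% of their probe sets lay at the floor of the scale (log2 of 2.07), within the range of the others. Markers of excitatory neurons such as Slc17a7 (12.24 to 12.61) and of oligodendrocytes such as Mbp (14.73 to 15.04) were high, and both were within the range of the other strains. The summed level of each of 18 marker lists was within the range of the other strains, with exceptions on the C57BR/cdJ and C58/J water arrays. In C58/J the upper layer list, at 14.07, lay just below the other strains (14.09 to 14.43). In C57BR/cdJ the choroid plexus list reached 15.10 (other strains 6.41 to 10.07) and the deep layer list 14.39 (13.94 to 14.32). The choroid plexus value was carried by Ttr, the thyroid hormone carrier transthyretin, at 15.09. Of the 9 measured choroid plexus markers 6 exceeded their highest value in the 26 strains, but apart from Ttr at low levels, with Kl at 4.95 and Sostdc1 at 4.07, and Otx2 was at the floor. The fluoxetine array of C57BR/cdJ showed Ttr at 6.74. The part of such tissue in the C57BR/cdJ results below was not tested. The sums do not show that 2 lists leaned to 1 side. Of 11 tested meninges markers 11 were lower in the 4 strains (median difference -0.29). Of 11 tested oligodendrocyte markers 11 were higher (0.15), beside -0.03 over all genes. In each list 0 markers passed the limma test described below. The other lists with several tested markers held both directions. Differences in tissue share were not tested.

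Of 11886 genes tested with limma, 181 differed between the 4 strains and the other 26 in water arrays at a Benjamini-Hochberg adjusted p under 0.05, which is 1.52% of the genes tested. Of these 76 (0.639%) were higher and 105 (0.883%) lower in the C57/C58-related strains, while 1250 genes (10.5%) had an unadjusted p under 0.05. Of the 181 differences 91 were under 0.5 on the log2 scale, and 33 were at least 1, of which 22 were higher and 11 lower. For 28 genes (0.236% of those tested) all 4 arrays lay above or all lay below every one of the other 26. Of these 27 (0.227%) passed the test, 14 above and 13 below, and 1 did not, Rab3c (difference 0.22, limma adjusted p = 0.206), named here because it was the single one. Among all genes tested the median difference was -0.03.

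A gap of at least 0.5 on the log2 scale between the 4 strains and every other array was seen for 4 genes, 0.0337% of those tested: Myo7a and Aldh7a1 above, Hddc3 and Me3 below.

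Myo7a encodes myosin VIIA, an actin motor known for its part in hair cells of the inner ear and in the retina. In water arrays its log2 intensity was 7.62 in C57BL/6J, 7.77 in C57BLKS/J, 8.09 in C57BR/cdJ and 7.79 in C58/J. The other 26 strains lay between 2.07 and 2.22 with a median of 2.08, that is at the floor. The groups were 5.39 apart at their closest. The fitted difference was 5.73 (standard error 0.04, limma adjusted p = 1.35e-39), and its size depends on where the floor of the scale lies. The standard error and p rest mostly on the 26 values at the floor, which hardly vary. They do not measure the spread among the 4 strains, which ran from 7.62 to 8.09. In fluoxetine arrays the 4 strains read 7.51 to 7.96 and the other 26 stayed between 2.07 and 2.12. A single probe set measured Myo7a, and sequence differences between strains under its probes were not tested.

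Hddc3 encodes a small hydrolase, also called MESH1, that is related to bacterial enzymes of the stringent response. It read 7.74, 7.54, 7.37 and 7.83 in C57BL/6J, C57BLKS/J, C57BR/cdJ and C58/J, against 9.47 to 9.96 (median 9.78) in the other 26. The groups were separated by 1.64, and the difference was -2.13 (standard error 0.07, limma adjusted p = 1.36e-19). Fluoxetine arrays repeated it with a difference of -2.37.

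The windows of 250 bases upstream of the RefSeq starts of these genes are shown because Myo7a and Hddc3 were the best separated genes in opposite directions. They are the GRCm38.p6 sequence, so they hold the allele of C57BL/6J, 1 of the 4 strains, and no allele of the other 26 was read. Myo7a has 2 annotated starts on the minus strand, the first with its window at chr7:98119494-98119743 and the second at chr7:98109249-98109498, and Hddc3 lies on the plus strand with its window at chr7:80342887-80343136. Capitals mark the GC box GGGCGG on either strand, a binding motif of Sp1.
Myo7a, first start: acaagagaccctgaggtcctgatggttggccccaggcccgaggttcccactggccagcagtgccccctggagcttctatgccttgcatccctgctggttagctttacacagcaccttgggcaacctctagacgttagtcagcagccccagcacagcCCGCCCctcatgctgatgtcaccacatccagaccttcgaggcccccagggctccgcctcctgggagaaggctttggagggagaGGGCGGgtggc
Myo7a, second start: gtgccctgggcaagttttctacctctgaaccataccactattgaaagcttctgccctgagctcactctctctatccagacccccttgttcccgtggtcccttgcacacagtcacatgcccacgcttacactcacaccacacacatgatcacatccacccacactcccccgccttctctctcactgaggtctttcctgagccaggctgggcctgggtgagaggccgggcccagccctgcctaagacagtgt
Hddc3: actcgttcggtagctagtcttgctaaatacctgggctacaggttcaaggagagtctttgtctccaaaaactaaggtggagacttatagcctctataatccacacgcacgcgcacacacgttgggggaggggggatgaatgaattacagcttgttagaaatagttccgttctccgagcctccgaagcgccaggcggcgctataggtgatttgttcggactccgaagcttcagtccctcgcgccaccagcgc

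The first Myo7a window held 2 GC boxes, and the second Myo7a window and the Hddc3 window held 0. Of 32841 RefSeq windows of the same length, 32.7% held at least 1. The TATA motif TATAAA, present on either strand in 12.4% of all windows, was in 0 of the 3 windows, as was the CRE motif TGACGTCA, present in 1.55%. The windows held 6, 4 and 17 CpG dinucleotides in the order printed, against a median of 6 over all windows.

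Aldh7a1, antiquitin, is an aldehyde dehydrogenase of lysine breakdown. Its water values of 10.57, 10.79, 10.76 and 10.75 in the order C57BL/6J, C57BLKS/J, C57BR/cdJ and C58/J stood above 9.27 to 9.91 (median 9.72) in the others, a difference of 1.03 (standard error 0.08, limma adjusted p = 2.87e-10). A second probe set of Aldh7a1, at a lower level, gave a difference of -0.21, with C57BL/6J at 6.42 inside the other strains' 6.12 to 6.72. The median of the 26 was that same 6.42 to every digit, as were the fluoxetine arrays of C57BLKS/J and C57BR/cdJ. Such a repeated value is no separate reading, so this probe set cannot decide whether the difference is seen there. Me3, a mitochondrial malic enzyme that makes NADPH, read 8.85, 8.88, 9.19 and 8.66 against 9.79 to 10.41 (median 10.05). Its difference was -1.19 (standard error 0.09, limma adjusted p = 8.23e-11), and a gap of 0.54 remained in fluoxetine arrays.

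**Figure D1:**
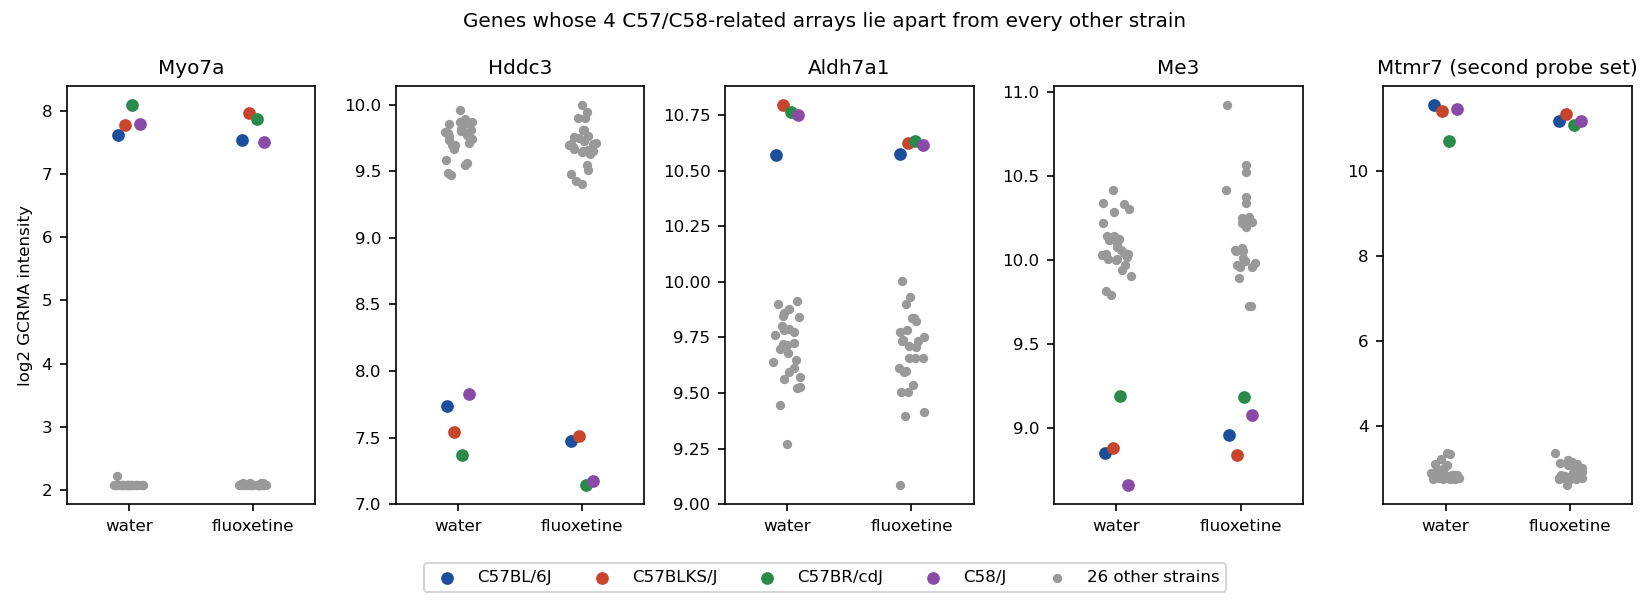
Log2 GCRMA intensity (vertical axis, a separate scale in each panel) of 5 probe sets in water and fluoxetine arrays, 1 point per strain, with the C57/C58-related strains in colour and the other 26 in grey. In each panel the 4 coloured points lie apart from all grey points in both treatments; Myo7a in the other strains sits at the floor of 2.07.

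Mtmr7, a lipid phosphatase of the myotubularin family, showed the widest separation of any probe set when each of 21631 probe sets was taken by itself, an analysis added after the data were seen. This was its second probe set, which read 11.55, 11.41, 10.71 and 11.45 in C57BL/6J, C57BLKS/J, C57BR/cdJ and C58/J, and 2.74 to 3.36 (median 2.84) in every other strain. The difference was 8.38, and the gap was 7.35 in water and 7.70 in fluoxetine arrays. The probe set with the higher mean, which represents the gene in the main comparison, moved far less: 9.56, 9.65, 10.00 and 9.65 against 8.92 to 9.49 (median 9.18), a difference of 0.50 (standard error 0.09, limma adjusted p = 0.00144). The size of 8.38 is set in part by the low end of the scale, since the other strains lay near its floor. Sequence differences between strains under the probes were not tested.

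Other named genes also lay above all others in the 4 strains. Fcrls, a scavenger-type Fc receptor-like protein of microglia, read 9.08, 9.05, 7.997 and 8.58 in C57BL/6J, C57BLKS/J, C57BR/cdJ and C58/J against 2.53 to 7.76 (median 5.84), a difference of 2.91 (standard error 0.52, limma adjusted p = 0.00148). C57BR/cdJ was the lowest of the 4 and lay close to the highest of the others. Slc39a2, a zinc importer, read 4.53, 4.31, 5.36 and 5.08 against 2.46 to 3.98 (median 2.65), all at low intensity. Its difference was 2.04 (standard error 0.18, limma adjusted p = 7.25e-09). In fluoxetine arrays BTBRT T(+) tf/J was no lower for Slc39a2 than the lowest of the 4. Ppm1m, a protein phosphatase, read 9.40, 9.12, 9.21 and 8.74 against 7.86 to 8.43, a difference of 0.94 (limma adjusted p = 4.73e-08). Gsto1, a glutathione transferase of the omega class, differed by 0.89 (limma adjusted p = 0.000273), but its second probe set by 0.12. The sorting receptor Sorcs3 differed by 0.78, the ERK phosphatase Dusp7 by 0.57, the adhesion molecule Clmp by 0.55, the centriolar satellite protein Pcm1 by 0.45 and the nucleolar protein Nolc1 by 0.35. The second probe set gave 0.53 for Dusp7 and 0.88 for Clmp, whereas that of Pcm1 (-0.059) and that of Nolc1 (-0.17) had the opposite sign. Of 5 Pcm1 probe sets the fourth again placed the 4 strains above all others (difference 0.74). The call of Sorcs3 was lost without C57BL/6J (limma adjusted p = 0.0662). The last 2 of the 14 genes above all others were Nipa1, a magnesium transporter (0.25), and Tusc3 (0.25), and the neighbour of Nipa1, Nipa2 (-0.20), was the smallest of the 13 below.

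Below all others, the largest difference after Hddc3 and Me3 was that of Shoc2, a scaffold of RAS to RAF signalling. Shoc2 read 10.40, 10.33, 10.45 and 10.25 in C57BL/6J, C57BLKS/J, C57BR/cdJ and C58/J against 10.47 to 11.34 (median 11.14), a difference of -0.76 (standard error 0.09, limma adjusted p = 2.2e-06). Its second probe set gave -1.03. Bend4, a BEN domain protein, differed by -0.68, the predicted gene Gm5617 by -0.62, Pnp, the purine nucleoside phosphorylase, by -0.56, and the cAMP phosphodiesterase Pde4d by -0.26. Dusp12 (-0.36) and Ccndbp1 (-0.28) passed narrowly. Without any 1 of the 4 strains Dusp12 did not pass (limma adjusted p 0.0832 to 0.0976), and without C57BL/6J or C57BLKS/J Ccndbp1 did not (0.315 and 0.0707).

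Probe sets disagreed in sign for 4 of the 12 named genes below all others. Pde4d was higher by its second probe set (0.18). Hcfc2, a relative of host cell factor, was lower by its 2 brightest probe sets (-0.61 and -0.74) and higher by the third (0.70), where the 4 strains read 9.17 to 9.38 and the others 8.13 to 8.90. Paqr7, a membrane progestin receptor, was lower by the probe set used (-0.50) and higher by the second (2.03). Rhobtb3, an atypical GTPase family member, gave -0.44 by its 2 brightest probe sets and 1.17 by the third. Over all 21631 probe sets, 257 passed the test, 130 of them higher and 127 lower, and they named 223 genes; 7 of these genes had probe sets past the test in both directions. Of the 181 genes called in the main comparison, 85 had a second probe set bright enough to test. It had the same sign for 59, at least 0.5 times the difference for 41 and a call of its own for 18.

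Several of the largest differences were shared with 1 or a few other strains. Rpgrip1, a scaffold of the photoreceptor cilium, read 10.25 to 10.36 in the 4 strains; the other 26 had a median of 6.26, but NZW/LacJ reached 10.47. The difference was 4.06 (standard error 0.55, limma adjusted p = 1.79e-05). Ang, the secreted ribonuclease angiogenin, read 5.51 to 6.39 in the 4 strains and was at the floor in the median other strain, with BTBRT T(+) tf/J at 5.77 as the only one at the level of the group. The same strain, and no other, matched the group for Gm26782 (8.87 to 9.15 in the 4, 9.21 in BTBRT T(+) tf/J, median 5.49). Abhd1, a hydrolase, read 5.83 to 6.45 against a median of 8.48, with NZW/LacJ at 6.26. These 4 genes and Sstr1 were named after their values were seen. Ang has closely similar copies in the mouse genome, and whether its probes bind them was not tested. For Zfp874a (difference 4.02) and Sstr1 (-2.52) 1 of the 4 strains lay at the level of most others. Zfp874a, a zinc finger gene, was at the floor in C58/J and at 7.45 to 7.93 in the other three. Sstr1, a somatostatin receptor, was at 2.22 or 2.23 in 3 strains and at 6.45 in C57BLKS/J.

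As a description of how typical each strain was, the 181 genes were counted at which a strain lay on the group's side of the midpoint between both means. C57BL/6J did so for 171, C58/J for 161, C57BLKS/J for 156 and C57BR/cdJ for 146. Among the other 26 strains the count ran from 6 to 33 with a median of 15.5, highest in BTBRT T(+) tf/J. The genes were chosen on these arrays, so the gap between the groups is built in, and the order within each group is what the counts add. The range among the 4 strains was under 0.5 for 103 of the 181 genes and over 1 for 28.

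The differences recurred in the fluoxetine arrays, which came from other mice. Of the 181 genes 180 kept their sign and 111 (61.3%) passed the test again, 52 higher and 59 lower; the fluoxetine comparison called 182 genes in all (1.53%). Of the 27 genes whose arrays did not overlap in water, 27 kept their sign, 23 passed again and 14 again did not overlap. The 1 gene that changed sign was Sap30, a subunit of a histone deacetylase complex, at -0.33 in water and 0.26 in fluoxetine arrays. A test of the difference itself, the within-strain change with fluoxetine compared between 4 and 26 strains by limma, gave 0 genes (0%), with 765 at an unadjusted p under 0.05; without C57BLKS/J 9 genes passed and without C58/J 1. The fluoxetine comparison itself called 120 genes without C57BL/6J and 117 without C58/J. The strains are the same in both sets, so the repeat checks the measurement and not the choice of strains.

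**Figure D2:**
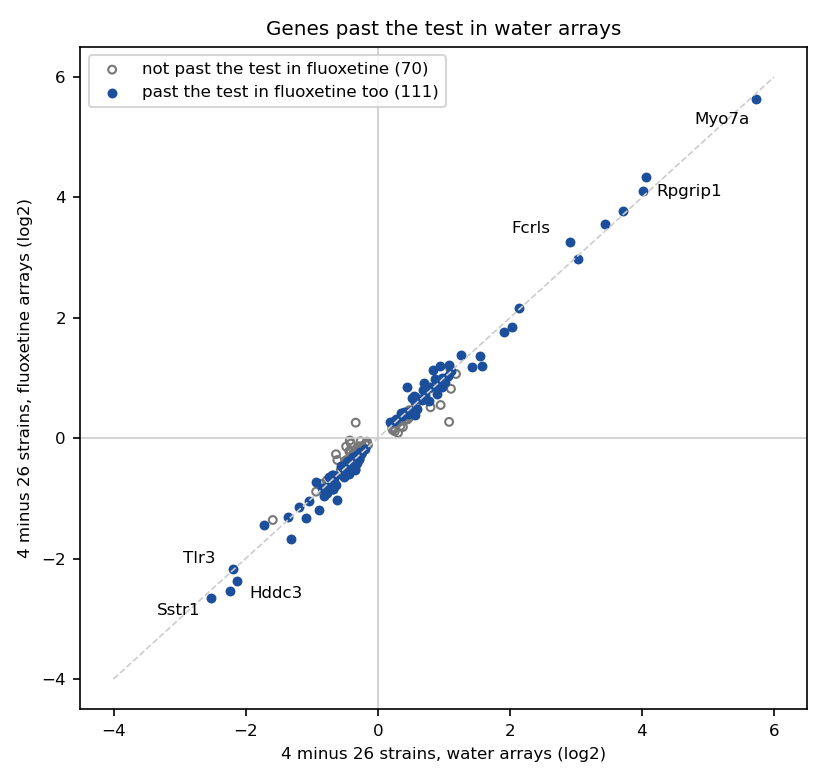
Difference of the mean log2 intensity, 4 C57/C58-related minus 26 other strains, in water arrays (horizontal) and in fluoxetine arrays (vertical) for the 181 genes past the test in water arrays; filled points (111) passed in fluoxetine arrays too, open points (70) did not, and the dashed line marks equal differences. The points follow the line from Sstr1 at -2.52 to Myo7a at 5.73.

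Called genes lay close to each other on the chromosomes. With genes in the order of GRCm38.p6, 79 of the 181 called genes (43.6%) had another called gene among the 5 tested genes on either side, against 11.2% of the genes not called, and for 54 the neighbour differed in the same direction. They formed 25 runs. The largest held 11 called genes: Tnks, Trmt9b, Dlc1, Tusc3, Micu3, Mtmr7, Pcm1, Frg1, Fat1, Tlr3 and Sorbs2. In it Trmt9b was higher by 1.58, Micu3, a regulator of mitochondrial calcium uptake, by 0.66, and Tusc3, a magnesium transporter and oligosaccharyltransferase subunit, by 0.25, while Frg1 (-0.84) and the cadherin Fat1 (-0.49) were lower. The second run held 9 called genes. In it Gm26782, Ang, Slc39a2 and Rpgrip1 were higher by 2.04 to 4.06 and Naa30 by 0.29, while lower values were seen for Ttc5 (-0.78), Pnp (-0.56), Mettl17 (-0.67) and Supt16 (-1.35), a subunit of the histone chaperone FACT. Both of these runs held higher and lower genes. A run of 5 called genes held Ppm1m and Dusp7. Runs of 2 paired Gsto1 with Sorcs3, Hddc3 with Man2a2, Me3 with Eed, and Nipa1 with Nipa2.

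**Figure D3:**
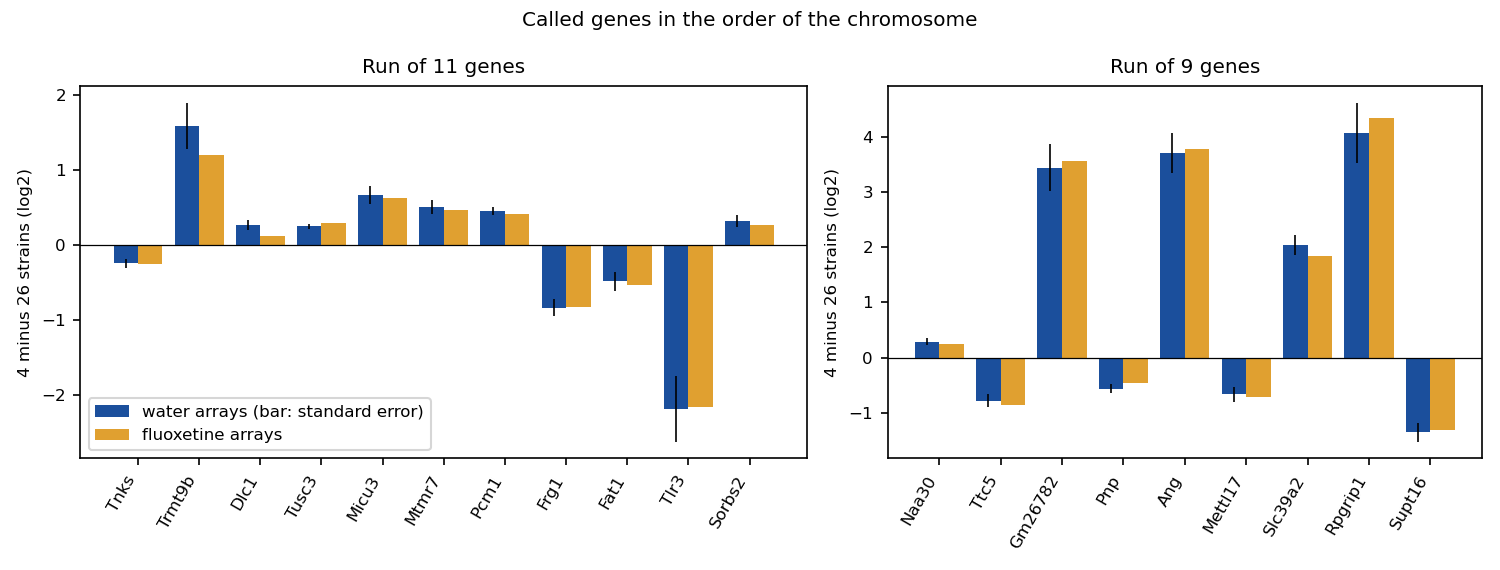
Difference of mean log2 intensity, 4 C57/C58-related minus 26 other strains, for the called genes of the 2 longest runs in chromosome order; blue bars are water arrays with the standard error, yellow bars fluoxetine arrays. Both directions occur within each run, from Tlr3 at -2.19 to Trmt9b at 1.58 in the run of 11 genes and from Supt16 at -1.35 to Rpgrip1 at 4.06 in the run of 9.

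To see which of the 4 strains share a level, genes were counted at which a subset lay above or below every other water array by at least 0.5 on the log2 scale. A single strain stood apart at 81 genes (0.681% of those tested), 2 strains together at 11 (0.0925%), 3 together at 6 (0.0505%) and all 4 at 4. The counts for single strains were 13 in C57BL/6J, 20 in C57BLKS/J, 27 in C57BR/cdJ and 21 in C58/J. Of the 11 genes of pairs, 7 belonged to C57BR/cdJ with C58/J, 3 to C57BL/6J with C57BLKS/J and 1 to C57BL/6J with C57BR/cdJ. All 4 of the genes shared by the whole group, and 28 of the 81 genes of single strains, were again separated by at least 0.5 on the same side in fluoxetine arrays.

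**Figure D4:**
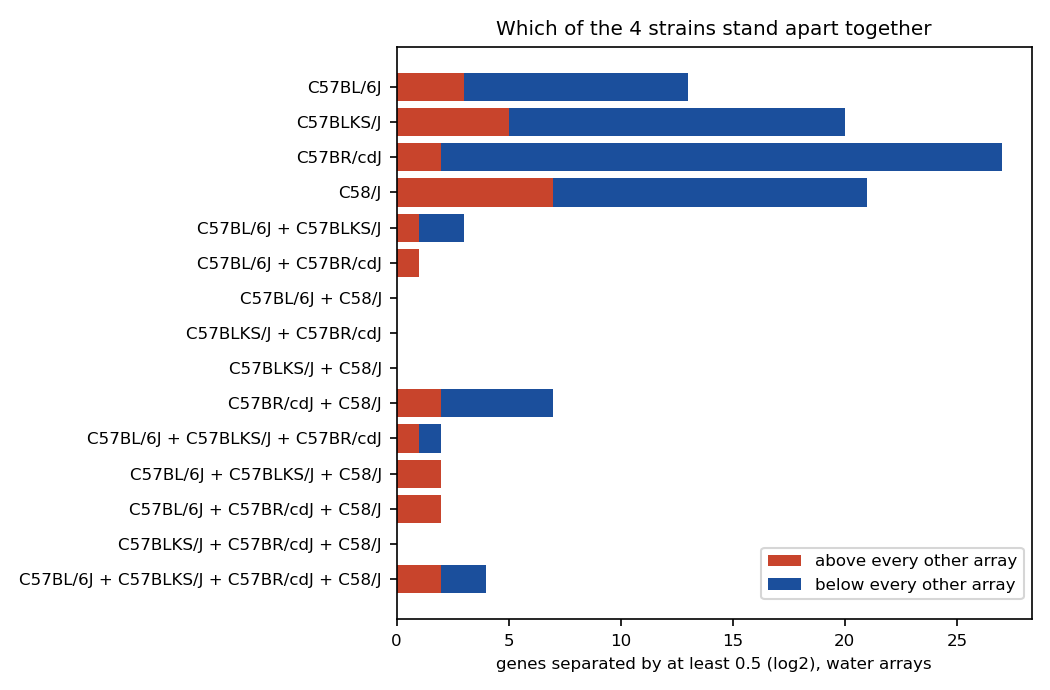
Number of genes (horizontal axis) at which the strains named on the vertical axis lie together above (red) or below (blue) every other water array by at least 0.5 on the log2 scale. Single strains have 13 to 27 genes, the pair C57BR/cdJ and C58/J has 7, and the whole group has 4.

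C57BR/cdJ and C58/J shared low Tlr3, the endosomal receptor for double-stranded RNA. By its brightest probe set Tlr3 read 3.85 in C57BR/cdJ and 3.38 in C58/J, but 7.85 in C57BL/6J, 7.99 in C57BLKS/J and 7.41 to 8.35 in the other 26 strains; the gap was 3.56 in water and 3.45 in fluoxetine arrays. The second Tlr3 probe set was low in both too, at 3.53 and 5.03 against 6.51 to 7.12 in the 26. Its call in the comparison of 4 against 26 therefore rests on these 2 strains, and was lost without either (limma adjusted p 0.0665 and 0.104). Fgf14, an intracellular fibroblast growth factor homologue that binds sodium channels, read 9.31 and 9.77 in the same pair against 11.50 or more in all others. Of the next Fgf14 probe sets, the second read 10.04 in C57BR/cdJ, below the 26 (10.49 to 10.94), but 10.65 in C58/J, inside them, and the third read 9.70 and 10.39, both inside 9.69 to 10.58. Ifit2, an interferon-induced protein, was high in the pair (10.16 and 10.64) and at 6.98 to 8.55 in the 26. Fgf14 and Ifit2 also lost their group call without C57BR/cdJ or without C58/J. The other members of this pair's set were Clcn3, Nup37 and Gpc5 below and Slc39a2 above. In fluoxetine arrays the gap of the pair was 0.82 for Nup37 and 0.42 for Clcn3 and for Gpc5. For Slc39a2 the pair overlapped the other arrays there (-1.33).

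C57BL/6J and C57BLKS/J shared low Clec16a, a regulator of mitophagy, at 8.58 and 8.64 against 9.49 to 10.04 in the 26, and high Pxdn, peroxidasin, at 9.29 and 9.25 against 7.22 to 8.42. The separation of Clec16a recurred in fluoxetine arrays (gap 0.83), while that of Pxdn shrank to 0.09. C57BL/6J and C57BR/cdJ shared the noncoding RNA 2610035D17Rik at 5.21 and 4.89 against at most 3.96 in the 26. Slc35a5, a nucleotide sugar transporter homologue, was high in C57BL/6J, C57BLKS/J and C58/J at 12.04 to 12.19, and C57BR/cdJ at 10.60 lay with the others (10.37 to 11.23). Its group call was lost without C57BL/6J (limma adjusted p = 0.0643). Ppp1r3e, which targets protein phosphatase 1 to glycogen, and the ribosomal protein gene Rps4l were high in all but C57BLKS/J, at 8.01 to 8.61 and 8.61 to 9.08, against 5.59 and 6.51 in C57BLKS/J. Mtrr, methionine synthase reductase, was low in all but C58/J, at 7.11 to 7.29 against 8.32 in C58/J and 8.17 or more in the 26. The predicted gene Gm35161 was high in all but C58/J, at 7.25 to 7.41 against 5.21 in C58/J. In fluoxetine arrays the Mtrr gap fell from 0.88 to 0.498, and Gm35161 was no longer separated (-0.015). Gaps there were 0.76 for 2610035D17Rik, 0.74 for Slc35a5, 1.01 for Ppp1r3e and 0.69 for Rps4l.

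Across all genes tested, after each gene was centred on its mean over the water arrays, C57BL/6J resembled C57BLKS/J most (Pearson r = 0.491 across genes, a description since genes are not independent), followed by C58/J (0.313). The 6 pairs among the 4 strains ranged from 0.0511 to 0.491 with a median of 0.154, and the 104 pairs with other strains from -0.291 to 0.141 with a median of -0.056. C57BR/cdJ was the least similar of the 4, with 0.0511 to C57BLKS/J, 0.097 to C57BL/6J and 0.157 to C58/J, and BTBRT T(+) tf/J reached 0.102 with it. The water array of each of the 4 strains resembled its own strain's fluoxetine array best, at 0.666 to 0.832.

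Genes of single strains had to pass a limma test of the strain against the 26 others and to lie outside all 29 other water arrays. With 1 array a strain, the spread was taken from the 26 other strains. The test alone was passed by 56 genes in C57BL/6J (0.471%), 47 in C57BLKS/J (0.395%), 72 in C57BR/cdJ (0.606%) and 60 in C58/J (0.505%). Outside all other arrays as well, C57BL/6J had 39 such genes (0.328%), 14 above and 25 below. C57BLKS/J had 31 (0.261%), C57BR/cdJ 59 (0.496%) and C58/J 41 (0.345%). In fluoxetine arrays 14, 14, 25 and 16 of them again lay outside all other strains on the same side.

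In C57BL/6J the widest gap was low Wdfy1, an adaptor that binds phosphatidylinositol 3-phosphate on endosomes. Wdfy1 read 8.38 in C57BL/6J against 9.88 to 10.36 in all 29 other arrays (limma adjusted p = 3.92e-09), and 8.43 in fluoxetine arrays. Its next 2 probe sets were also lowest in C57BL/6J, at 8.07 and 5.96. The other genes named for this strain repeated less well. Gm19531 was high at 6.04 and stayed above the others in fluoxetine arrays by 0.27. Scn7a, a sodium-sensing channel (6.68), and Rsl1, a zinc finger repressor of liver genes (8.04), lay above all other strains in water arrays only, and Akip1, a binding partner of protein kinase A, lay below them in water arrays only (5.25, then 6.31). 1110017D15Rik was low at 2.93 with a gap of 0.88, which fell to 0.09.

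In C57BLKS/J 3 neighbouring genes were low together. Pigbos1, which encodes a mitochondrial microprotein, read 6.50 against 7.65 to 8.65 in the other 29 arrays, and 6.91 in fluoxetine arrays, again below all others. Pigb, a mannosyltransferase of the GPI anchor, differed from the 26 by -1.30, and Ccpg1os by -1.28. The C57BLKS/J value of Ccpg1os was identical to every digit in water and fluoxetine arrays (5.38), so the repeat holds no separate reading of its level. Ccpg1, which lies between Pigb and Ccpg1os in the order of tested genes and starts opposite Ccpg1os, differed by 0.02. Pigb and Pigbos1 are transcribed away from each other from RefSeq starts 18 bases apart on GRCm38.p6, at chr9:73039700-73039717, printed here on the plus strand because both genes of the pair were low.
Pigb to Pigbos1, between the starts: actaccgcggcaggaagt

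For comparison, 127 bases lie between the starts of Ccpg1 and Ccpg1os, of which only the second was low. Zdhhc6, a palmitoyltransferase, was high in C57BLKS/J at 9.91 against 8.86 to 9.36, and its gap grew from 0.55 in water to 1.06 in fluoxetine arrays. Spata5l1, an ATPase of ribosome assembly, read 5.84 in C57BLKS/J, where the median of the other 29 was at the floor. Slc2a4rg-ps was low at 5.08. Frrs1, a ferric reductase homologue, was high in water (4.71) but not in fluoxetine arrays (2.51), where C58/J was the highest strain at 5.66.

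C57BR/cdJ had 3 genes that were far below every other strain. Dusp19, a phosphatase of the JNK pathway, read 2.23 in both treatments, against 6.06 to 7.87 in the other 29 water arrays (limma adjusted p = 1.01e-11). Ccar2, an inhibitor of the deacetylase SIRT1, read 4.76 in water and 4.98 in fluoxetine arrays against 7.97 to 10.21. A second probe set of Dusp19 was also lowest in C57BR/cdJ, at 3.10 against 4.04 to 7.17 in the 26, and Ccar2 had 1 probe set. Slc1a3, the astrocyte glutamate transporter GLAST, read 10.02 and 10.39 against 12.13 to 12.84. The other Slc1a3 probe sets differed among themselves: the third was also lowest in C57BR/cdJ at 9.74 (the 26 at 10.36 or more), but the second read 12.10, within 11.70 to 12.38. In the order of genes, Lifr, the leukaemia inhibitory factor receptor (-1.17), and Nadk2, a mitochondrial NAD kinase (-1.07), were low in C57BR/cdJ on either side of Slc1a3, and Wdr70 was high (0.48). Selenoh, a selenoprotein of the nucleolus, was high at 11.61 and 11.43 against 9.46 to 10.30. Ackr1, the atypical chemokine receptor of the Duffy antigen, was high at 11.33 in water, next to C57BLKS/J at 10.88. Ttr, at 15.09, is the choroid plexus transcript already described, and its level was not repeated in fluoxetine arrays.

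In C58/J Dusp18, a dual-specificity phosphatase, read 2.61 in water and 4.34 in fluoxetine arrays against 8.54 to 9.58 in the other 29 water arrays (limma adjusted p = 1.69e-17). Its second probe set was lowest in C58/J too, at 6.12 against 7.42 or more in the 26. Usp11, a deubiquitinase, read 8.30 and 7.92 against 10.93 to 11.38 (limma adjusted p = 1.99e-17). Robo4, an endothelial guidance receptor, read 2.34 and 3.30 against 4.55 to 5.89. These 3 genes were again below all other strains in fluoxetine arrays. Epm2a, laforin, a glycogen phosphatase, was high at 7.67 and 7.62 against 5.22 to 6.69. Tmem132c lay above all others in water arrays only (6.32, then 4.81), and Ifit2, shared with C57BR/cdJ, was highest in C58/J at 10.64.

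**Figure D5:**
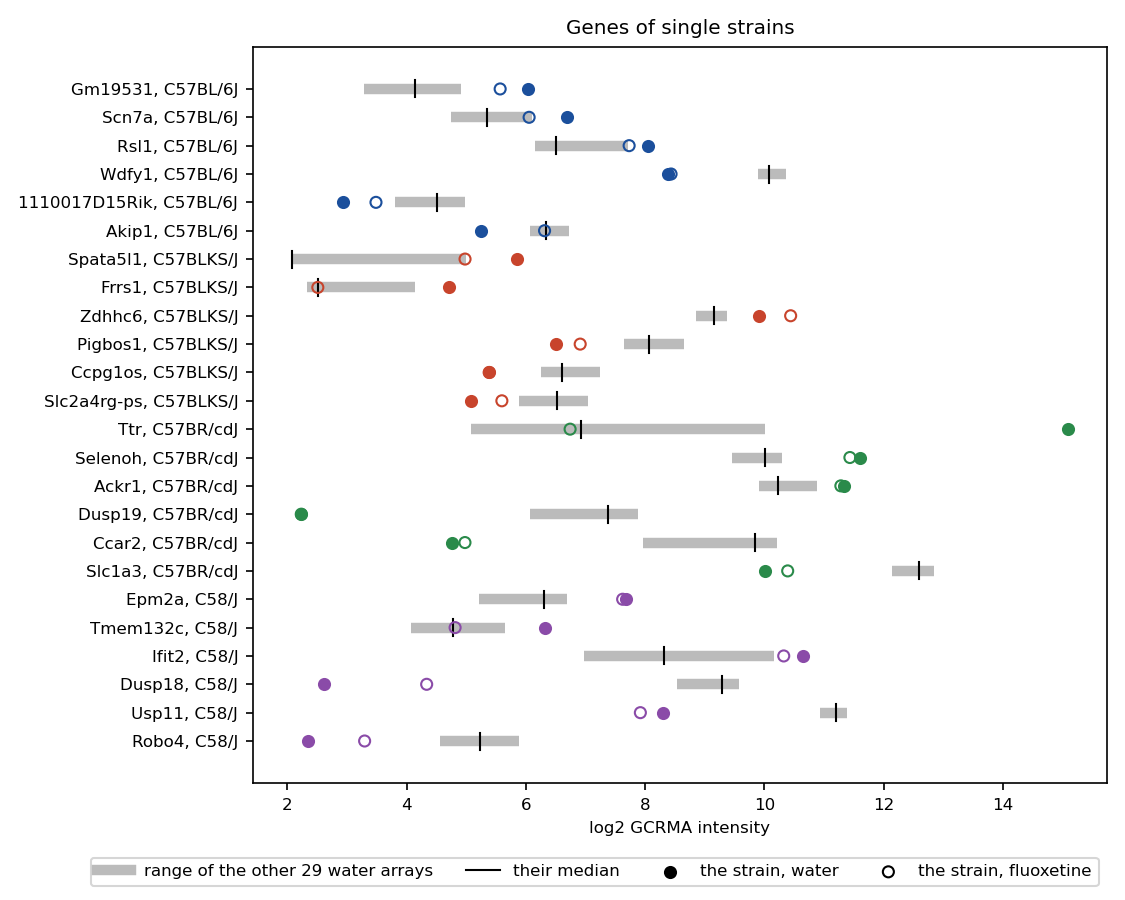
Log2 GCRMA intensity of the genes named for single strains: filled circles are the strain's water array, open circles its fluoxetine array, grey bars the range of the other 29 water arrays and black ticks their median. Dusp19 in C57BR/cdJ and Dusp18 in C58/J lie farthest below the bars, and Ttr in C57BR/cdJ farthest above, with its fluoxetine circle inside the bar.

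Some genes known to vary among inbred strains divided the 4 strains rather than marking the group, and their levels are given without a test. Galc, the lysosomal galactosylceramidase, read 9.29 and 9.32 in C57BL/6J and C57BLKS/J but 2.91 and 2.33 in C57BR/cdJ and C58/J; the other 26 strains spanned 2.45 to 9.53. A second, dimmer Galc probe set had the opposite order, with 4.51 and 4.62 in the first pair and 6.06 and 5.24 in the second. Alad, an enzyme of haem synthesis, was 9.18 and 9.21 in the first pair, 11.52 in C57BR/cdJ and 10.16 in C58/J. Kcnj9, the potassium channel subunit GIRK3, was 10.16, 10.45 and 10.16 in C57BL/6J, C57BLKS/J and C57BR/cdJ and 12.14 in C58/J, where the median of the 26 was 12.18. By the second Kcnj9 probe set C58/J was the lowest of the 4, at 9.34. By the third it was the highest again, at 6.52 against 5.13, 5.35 and 5.05 in C57BL/6J, C57BLKS/J and C57BR/cdJ. Gabra2, a GABA-A receptor subunit, was lowest in C57BL/6J at 10.01 (the 26 at 10.41 or more), as was the complement regulator Cd59a within the group at 6.76. Glo1, glyoxalase 1, was 13.12 in C57BLKS/J and 11.20 to 11.99 in the other three. Nnt, the mitochondrial transhydrogenase of which C57BL/6J is known to lack part of the gene, gave 10.13 in C57BL/6J by its brightest probe set, within 9.44 to 10.88; by its second probe set it gave 9.42 in C57BL/6J and 9.50 in C57BLKS/J against 9.54 or more in the 26. Ahr (8.90 to 9.11), Cox7a2l (11.74 to 11.87) and Ide (10.03 to 10.19) hardly varied among the 4 strains, and H2-Q10 and Trim12a were too dim to test.

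The class I antigen-presenting genes H2-K1 and H2-D1 were low in both strains of haplotype k by their brightest probe sets, but not by all of them. H2-K1 read 5.63 and 4.61 in C57BR/cdJ and C58/J, and 9.07 and 8.86 in C57BL/6J and C57BLKS/J, where the 26 spanned 4.98 to 11.41. H2-D1 read 9.98 and 9.88 in C57BL/6J and C57BLKS/J, and 6.58 in C57BR/cdJ and in C58/J, where the 26 spanned 6.58 to 12.29. That 6.58 was identical to every digit in both strains and in the lowest of the 26, so it holds no separate reading of their level. The sixth H2-D1 probe set had the opposite order, with 7.37 in C57BR/cdJ and 7.94 in C58/J against 2.10 in C57BL/6J and C57BLKS/J. The fifth, seventh and eighth H2-D1 probe sets were high in C57BLKS/J alone among the 4 strains, at 8.03 to 8.30. The invariant partner B2m, outside the H2 region, differed little (12.29 to 12.76). H2-T24 read 5.33 in C57BL/6J and 3.31 to 3.35 in the rest of the group, where the 26 spanned 2.78 to 5.05 with SM/J highest. Of 15 H2-region and partner genes tested with limma, 0 passed the test of 4 against 26 and 1 had an unadjusted p under 0.05, where 1.52% and 10.5% of all genes did, and their median difference was -0.13 beside -0.03 over all genes tested. Probes for H2 genes were made for 1 allele, and how well they bind the other haplotypes was not tested.

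The pathway and family lists are read against all genes tested, of which 0.639% were higher, 0.883% lower and 1.52% called in all. Of 291 zinc finger genes tested 2 were higher and 2 lower than in the other strains, and the list's median difference was -0.02; this share and that of the solute carriers are near the share of all genes. Zfp593 was higher by 0.97 and Zfp874a by 4.02, while Zfp467 (-0.81) and Zfp598 (-0.37) were lower. Of 236 solute carriers 3 were higher and 0 lower (median -0.04): Slc39a2, Slc35a5 (0.92) and the amino acid transporter Slc7a8 (0.46). Of 15 innate immune genes tested 2 were higher, Ifit2 (1.11) and Trim34a (1.91), with a list median of 0.04. Of 10 complement genes C1qc, a chain of the C1q complex made by microglia, was higher by 1.10 (limma adjusted p = 0.0332).

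Against the same 1.52% of all genes, of 37 glutathione and redox enzymes Gsto1 was higher, and Txnrd1, the cytosolic thioredoxin reductase (-0.46), and the peroxiredoxin Prdx2 (-0.27) were lower, with 28 of the 37 negative and a median of -0.06. Prdx2 rests on its brightest probe set: the second gave 2.03. Of 64 genes of oxidative phosphorylation only Sdhc, a subunit of complex II, was lower (-0.35), and 56 of the 64 differences were negative with a median of -0.06; over all genes 7287 of 11886 were negative. Of 17 genes of the serotonin and catecholamine systems S100a10, which binds serotonin receptors, was higher by 0.45. Of 11 microglial markers Fcrls was higher and the list's median was 0.11, and the summed level of these markers in the 4 strains (12.62 to 12.78) lay inside 12.22 to 12.90. In bulk RNA more cells of a type and more RNA per cell cannot be told apart.

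None of the tested members differed at this threshold among GABA-A receptor and synthesis genes (18), glutamate receptors (20), potassium channels (48), neuropeptides (20), vesicle genes (35), clock genes (20), immediate early genes (26) and protocadherins (24); limma gave 1, 3, 6, 1, 3, 6, 5 and 2 of them an unadjusted p under 0.05. Over all genes tested 1.52% were called and 10.5% had such a p, so lists of this size would hold few calls or none at the same shares. The clock genes, with 6 of 20, exceeded that 10.5%. So did the immediate early genes (5 of 26), the glutamate receptors (3 of 20) and the potassium channels (6 of 48). Of the clock genes 16 were negative (median -0.13), as were 20 of the 26 immediate early genes (-0.15), while 16 of the 20 glutamate receptors were positive (0.11). Medians of the remaining lists ran from -0.02 to 0.07, beside -0.03 over all genes. No set test was run. Several calls on list members depended on single strains. Left out 1 at a time, C57BL/6J ended the calls of C1qc, Txnrd1, Prdx2, Trim34a, Zfp593, Zfp598, S100a10 and Sdhc, and C57BLKS/J ended the same ones except Txnrd1. C58/J ended those of C1qc, Trim34a, Zfp467, Zfp593, Zfp598, S100a10 and Sdhc, and C57BR/cdJ those of C1qc and Prdx2. Their limma adjusted p then ranged up to 0.131 for C1qc, 0.11 for Trim34a, 0.292 for S100a10 and 0.344 for Zfp598.

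The counts moved with single strains as well. Without C57BL/6J 42 genes were higher and 38 lower, 27 of them without overlap. Without the C57BR/cdJ water array, the one with high Ttr, 70 were higher and 143 lower, with 74 that did not overlap. Without C57BLKS/J 66 were higher and 63 lower, with 42 that did not overlap, and without C58/J 57 and 73, with 40.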

How the data were processed

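Cortical RNA pooled from 3 males per strain and treatment was hybridised to 60 Affymetrix arrays. The deposited values are linear intensity per probe set, and the submitters' processing notes name GCRMA, a method that removes background with probe sequence and normalizes between arrays. Its version, the genome build, scan dates and batches are not given in the sources used here. From these intensities log2 values were taken, and no pseudocount was added. Many values sit at 2.07, the floor of that scale, and differences near it have no order. Some probe sets also give an identical higher value in several arrays, and such values have no order either. As array data hold no read depth, the number of arrays limits the precision.

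Probe sets with 1 gene name in the platform annotation gave 18193 genes, each represented by its brightest probe set over the 60 arrays. A gene was tested if log2 was at least 4 in at least 6 arrays. Groups were compared with limma 3.58.1 in R 4.3.3 (lmFit, eBayes, two-sided, Benjamini-Hochberg over all 11886 genes, 0.05), checked on simulated data. Strains came from the titles. The p-values rest on the spread between strains, which is clipped for genes that sit at the floor in most strains. Only the change with fluoxetine was paired, within a strain. Sequences are RefSeq's on GRCm38.p6, which also gave the gene order.

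Genes were named by rule: the 12 largest differences in each direction among called genes without overlap, 3 genes above and 3 below per strain by gap, 2 per subset, up to 4 called members per list, and a fixed set of strain-variable genes. Genes named outside this rule are stated as such or belong to a run, a list or a probe set result. The members and lists were chosen with earlier results of these data known. Alternatives covered the filter, probe set choice, scaling, normalization, moderation, left-out strains, averaged relatives and the fluoxetine arrays.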

Additional observations from a re-analysis of the deposited data

Results flagged for a closer look

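Among the named genes, 1 of the 4 strains stood apart from the other three by Dixon's criterion (the gap to the nearest strain over the range of the 4) in 23 of 131 sets of 4 arrays. Chance gives about 5% of sets, but many of these genes were chosen because strains differ in them, and 11 of the 23 sets belong to genes named for a single strain, so the count is not to be read against that share. Genes chosen because 1 to 3 strains stood apart in water arrays were not examined there.

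In water arrays the ratios were 0.837 for Gsto1 (C57BL/6J high, 11.11), 0.917 for Zfp874a (C58/J low, 2.07), 0.878 for Zfp467 (C58/J low, 6.23), 0.851 for Kcnj9 (C58/J high, 12.14) and 0.83 for Cd59a (C57BL/6J low, 6.76). For Zfp874a, Kcnj9 and Cd59a the same strain stood apart in fluoxetine arrays, with ratios of 0.926, 0.886 and 0.948. For Gsto1 a different strain did so there, C57BR/cdJ on the low side with 0.842.

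In fluoxetine arrays, strain-specific genes of the water arrays stood apart again in their own strain: 0.92 for Wdfy1 in C57BL/6J, 0.98 for Zdhhc6 in C57BLKS/J, 0.90 for Selenoh, 0.933 for Dusp19, 0.966 for Ccar2 and 0.907 for Slc1a3 in C57BR/cdJ, and 0.941 for Dusp18 and 0.93 for Usp11 in C58/J. Rps4l was low in C57BLKS/J with 0.846. For 3 genes another strain than that of the water arrays stood apart: Frrs1 in C58/J (high, 5.66, ratio 0.982), Rsl1 in C58/J (low, 6.63, ratio 0.868) and Tmem132c in C57BR/cdJ (high, 5.22, ratio 0.848). Gm5617 was low in C58/J (4.90, ratio 0.884), and H2-Aa, near the floor, was highest in C57BL/6J (3.37, ratio 0.929).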

How the results depend on the processing

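No paired analysis was possible because the 4 and the 26 are different strains and the labels give no replicate numbers that would match them; water and fluoxetine arrays were paired only within a strain, for the change with treatment. The cause of each change below was not tested, except that fewer probe sets or a wider gap leave fewer genes by construction. Of 3574 repeats of values of named genes under other settings, 3330 kept direction and side of the threshold, 220 lost the call, 5 gained one, 13 changed sign and 6 values without a test moved by over 1 SD. Counts outside 1.5 times the main one were these. With the second probe set of a gene, 30 genes were higher, 19 lower and 8 without overlap, 21, 7, 38 and 18 belonged to C57BL/6J, C57BLKS/J, C57BR/cdJ and C58/J alone, 81 were called in fluoxetine arrays and 2 depended on treatment; with the mean of all probe sets 3 did. With every probe set by itself, an alternative chosen after seeing the data, 130 were higher and 42 did not overlap. Without the filter the single-strain counts were 112, 111, 184 and 101 in the same strain order. With relatives averaged 89 genes belonged to C57BL/6J, 96 to C57BR/cdJ, and 66 called genes did not overlap. With centred arrays C57BL/6J had 25 and C57BLKS/J 20; with the filter at 6, C58/J had 26; with both arrays averaged, 63. Fluoxetine arrays alone gave 24 in C57BL/6J, 18 in C57BLKS/J and 103 in C58/J. A gap of 1 left 14, 3, 0 and 2 genes in subsets of 1, 2, 3 and 4 strains, a gap of 2 left 7, 1, 0 and 1, and separation in both treatments 28 singles and 6 pairs. Leaving out 1 of the 4 strains gave 42 to 70 higher, 38 to 143 lower, 27 to 74 without overlap, 117 to 156 in fluoxetine arrays, 0 to 9 depending on treatment (9 without C57BLKS/J), and 39 to 43, 32 to 37, 61 to 62 and 43 to 50 for the single strains. Leaving out 1 of the 26 gave 69 to 79 higher, 95 to 112 lower, 27 to 31 without overlap, 164 to 247 in fluoxetine arrays, 0 depending on treatment, and 36 to 48, 25 to 31, 54 to 66 and 36 to 43.

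Signs changed with the second probe set for Aldh7a1 (-0.21), Nolc1 (-0.17), Paqr7 (2.03), Pcm1 (-0.059), Pde4d (0.18), Prdx2 (2.03) and Zfp467 (0.062), with the mean of probe sets for Paqr7 (0.76), Prdx2 (0.88) and Rhobtb3 (0.11), and in fluoxetine arrays for Akip1 in C57BL/6J (0.039), Frrs1 in C57BLKS/J (-0.27) and Ttr in C57BR/cdJ (-0.45). Myo7a, Hddc3, Me3, Mtmr7, Shoc2, Fcrls and Slc39a2 passed under every setting that gave them a value. Signal near the floor limits Myo7a, the second Mtmr7 probe set, Slc39a2, Dusp18 and Dusp19, and 1 array a strain limits the single-strain genes. Identical values in several arrays limit the second Aldh7a1 probe set, Ccpg1os and the brightest H2-D1 probe set.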
